A study of Mus musculus with 2 samples.

Results

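B cell and lymphoid follicle genes were followed in the small intestine of mice that carry an interleukin 9 (IL-9Tg) transgene and of wild-type (WT) mice. The set comprised 40 genes, listed by their known roles. A group of 33 belongs to B cells, and 7 belong to the stroma, the vessels or the epithelium of the follicle. All 40 had a probe set of their own name among the 18194 genes named on the array. Each group was 1 Affymetrix array with total RNA of the small intestine from 1 pool of 3 mice, transgenic in one and WT in the other, in a BALB/c background and 6 to 8 weeks old, with no treatment. The labels do not state the promoter of the transgene or the length of intestine taken. With 1 array for each group there is no replicate, so no difference below has a test, and every value is 1 measurement of a pool.

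Lymphoid follicles of the gut wall are clusters of mature B cells held on a stromal network. In mouse, B cells that carry the receptor Cxcr5 move toward Cxcl13 made by follicle stroma, and they in turn keep that stroma going with lymphotoxin. Lymphocytes enter through vessels with adhesion molecules on their surface, and a specialised epithelium with M cells above the follicle takes up material from the lumen. B cells that become antibody-secreting cells switch off part of the mature B cell programme and settle in the mucosa outside the follicle. In bulk tissue, fewer cells of a type and less RNA per cell cannot be told apart.

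The values are probe set intensities in arbitrary units, and differences are IL-9Tg minus WT on the scale of log2(intensity + 1). Il9 itself read 62.2 in the IL-9Tg pool and 71.6 in the WT pool, and since the labels do not describe the construct, this does not check them. The median intensity was 78.7 in the IL-9Tg pool and 78.3 in the WT pool, and 95% of all named genes differed by between -0.45 and 0.46. The ratio of the 3′ to the 5′ actin probe set, a sign of RNA integrity, was 1.33 in the IL-9Tg pool and 1.61 in the WT pool. The 9 analysed genes of the small intestinal epithelium list, brush border and absorption genes among them, summed to 100876 in the IL-9Tg pool and 107878 in the WT pool, so the tissue carried its defining markers in both.

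Among the members, the 6 receptor and co-receptor genes, the 7 surface antigen genes and the 4 stroma and vessel genes all lay below 0. They did so to unlike degrees. Cd72, Vpreb3, Fcrla, Cd180 and Ly86 differed by -0.18 to -0.03 in the probe sets used. Those differences are smaller than the SD of 0.23 among probe sets that share a gene. The follicle epithelium members differed little in the probe sets used, and the B cell transcription factors had no common direction. Lists of further B cell genes, of follicular dendritic and reticular cell genes and of vessel genes, given below, did not read lower as groups. Their medians were 0.03, -0.0071 and 0.12. Of the 40 members, 5 were lower by 2-fold and 0 were higher by 2-fold. Among all named genes 0.132% were lower by 2-fold and 0.412% were higher. The 5 were Ms4a1, Cr2, Fcmr, H2-Ob and Glycam1, which made up 12.5% of the members and 20.8% of the 24 genes lower by 2-fold on the array. At 1.5-fold (0.58 in log2 units), 12 members were lower against 1.07% of all genes, and 1, Spib, was higher against 1.23%. The median difference was -0.26 over all 40 members and 0.0096 over all named genes, and 32 members lay below 0.

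Low signal limited some of these values. The mean over both pools reached the median of all deposited values, an intensity of 78.5, in 31 members. Of these 31, 3 were lower by 2-fold (0.181% of all genes with such a mean) and 9 by 1.5-fold (1.41%). At least 1 pool reached that intensity in 34 members, and in 6 of these only the WT pool did, namely Ms4a1, Cr2, H2-Ob, Glycam1, Fcer2a and Rasgrp3. The other 6 members, such as Cxcr5 and Pax5, reached it in neither pool. Background signal can shrink the differences of such dim genes, and noise can move them either way.

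**Figure D1:**
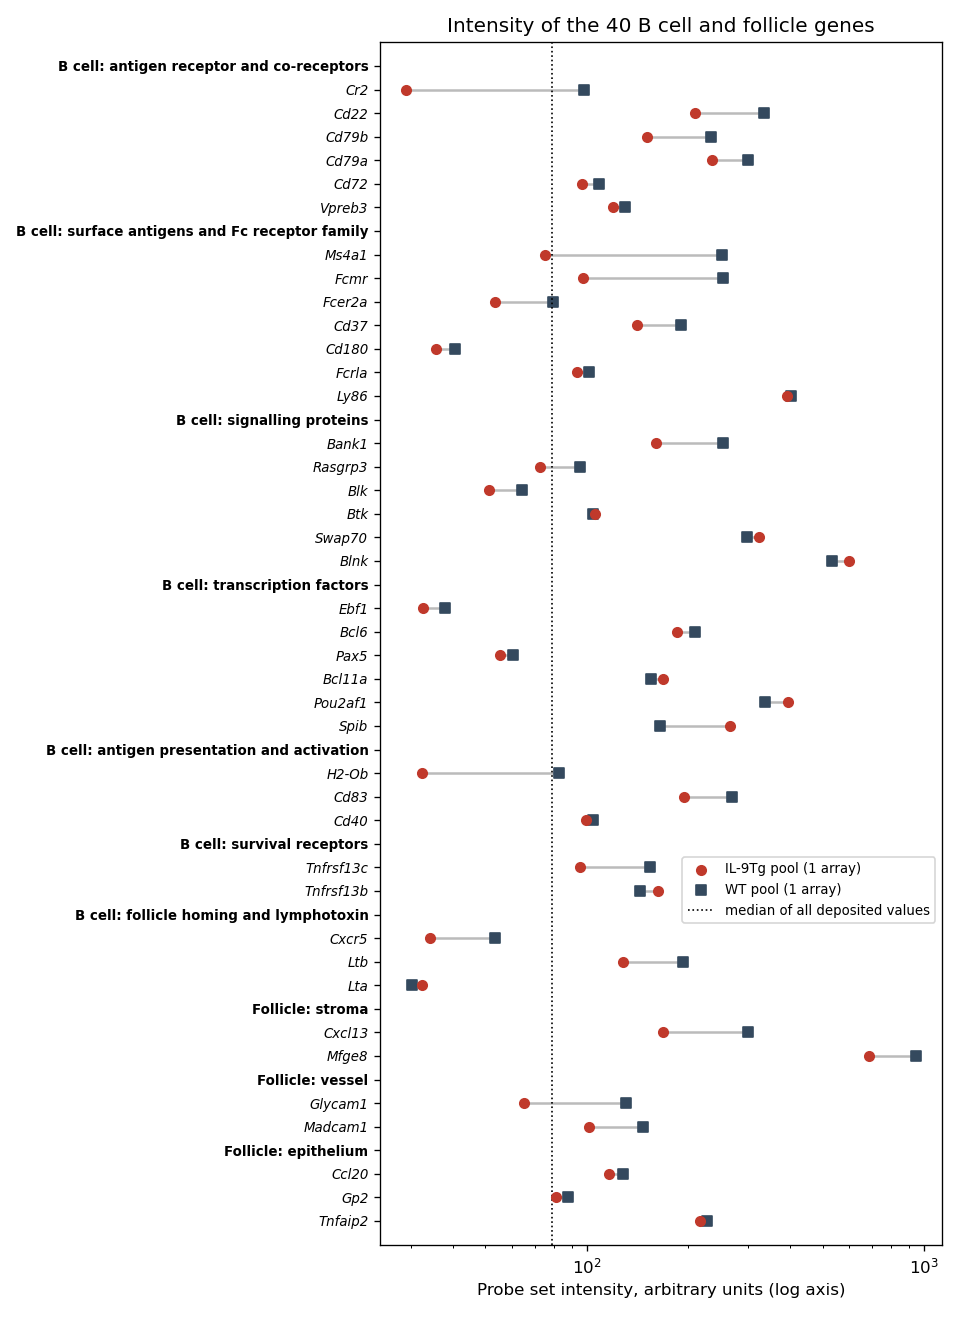
Intensity of the 40 members in the IL-9Tg pool (circles) and the WT pool (squares), 1 array each, on a log axis, grouped by role and ordered by difference within each role. The dotted line is the median of all deposited values, 78.5. Cr2, Ms4a1, Fcmr, H2-Ob and Glycam1 have the widest gaps, with the IL-9Tg pool lower, and Spib has the widest gap with the IL-9Tg pool higher.

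The receptor and its co-receptors come first. Cd79a and Cd79b are the signalling chains of the B cell antigen receptor. Cd79a read 234 in the IL-9Tg pool and 300 in the WT pool, a difference of -0.36. Cd79b read 151 in the IL-9Tg pool and 233 in the WT pool, 1.54-fold lower. Cr2, the complement receptor that lowers the threshold of B cell activation and is also carried by follicular dendritic cells, read 29.0 in the IL-9Tg pool and 98.3 in the WT pool, 3.31-fold lower. It was the gene with rank 3 from the lowest among the 18194, and its WT value alone was above the median of all values. Cd22, an inhibitory lectin of B cells that binds sialic acid, read 208 in the IL-9Tg pool and 334 in the WT pool, 1.60-fold lower, and its second probe set differed by -0.89. The inhibitory co-receptor Cd72 differed by -0.17 and Vpreb3, a protein related to the surrogate light chain, by -0.12. All 6 genes of this role lay below 0, with a median of -0.49.

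The promoter of Cr2 is shown because it belongs to the gene of this role with the largest difference, in GRCm38.p6 at chr1:195176670-195176969 on the minus strand, 5′ to 3′ along the gene, from RefSeq. It covers 250 bases before and 50 bases after the start, and capitals mark the letters CAGGTG or their complement.
Cr2: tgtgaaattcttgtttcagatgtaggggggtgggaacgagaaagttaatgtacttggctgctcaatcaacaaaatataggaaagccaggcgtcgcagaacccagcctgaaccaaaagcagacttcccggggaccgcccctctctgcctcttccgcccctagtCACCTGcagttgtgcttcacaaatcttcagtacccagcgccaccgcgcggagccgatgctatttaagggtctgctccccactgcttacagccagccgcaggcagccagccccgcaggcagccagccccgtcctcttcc

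Surface antigens and receptors for antibody included 2 of the 5 members lower by 2-fold. Ms4a1, the B cell antigen CD20, read 74.9 in the IL-9Tg pool and 251 in the WT pool, 3.33-fold lower. Its second probe set read 20.8 in the IL-9Tg pool and 94.2 in the WT pool, a difference of -2.13. Of all 18194 genes, only Slc34a2, an intestinal phosphate transporter outside the members, lay below Ms4a1. Fcmr, the Fc receptor for IgM, read 97.2 in the IL-9Tg pool and 254 in the WT pool, 2.59-fold lower, and had rank 10 from the lowest. Fcer2a, the low-affinity IgE receptor CD23 of mature B cells, read 53.3 in the IL-9Tg pool and 79.4 in the WT pool, a difference of -0.57 that fell just short of 1.5-fold, with -0.37 in its second probe set. The tetraspanin Cd37 differed by -0.43 and by -0.10 in its second probe set. Fcrla, an intracellular relative of Fc receptors, differed by -0.12, Cd180, a Toll-like receptor relative, by -0.18, and Ly86, the partner protein of Cd180 that myeloid cells also make, by -0.03. All 7 lay below 0, with a median of -0.43.

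The promoter of Fcmr is shown as that of the gene of this role with the largest difference after Ms4a1, which has no entry in the promoter table, in GRCm38.p6 at chr1:130865527-130865826 on the plus strand, with the same capitals.
Fcmr: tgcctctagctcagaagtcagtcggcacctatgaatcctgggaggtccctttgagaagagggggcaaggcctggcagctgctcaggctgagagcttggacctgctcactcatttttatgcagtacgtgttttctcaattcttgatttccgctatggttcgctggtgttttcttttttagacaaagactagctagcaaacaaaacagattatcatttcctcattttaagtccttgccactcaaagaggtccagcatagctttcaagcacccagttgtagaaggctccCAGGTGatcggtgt

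Signalling proteins inside the B cell were divided. Bank1, a scaffold protein of antigen receptor signalling, read 160 in the IL-9Tg pool and 253 in the WT pool, 1.58-fold lower. Rasgrp3, an activator of Ras, differed by -0.39, but its second probe set differed by 0.17, so no direction is given for it. The Src family kinase Blk read 51.3 in the IL-9Tg pool and 64.3 in the WT pool, a difference of -0.32 between values below the median of the arrays. Btk, the kinase downstream of the receptor, differed by 0.03, the adaptor Blnk by 0.17 and Swap70, which acts on the cytoskeleton and is made by other cells too, by 0.12. Of the 6 genes, 3 lay below 0 and 3 above, and 1 was lower by 1.5-fold.

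B cell transcription factors did not read lower as a group. Spib, an Ets family factor of B cells that is also used by M cells, read 266 in the IL-9Tg pool and 165 in the WT pool, 1.61-fold higher, the highest difference among the members. Pou2af1, a coactivator of octamer-binding factors that is also active in antibody-secreting cells, read 394 in the IL-9Tg pool and 337 in the WT pool, a difference of 0.22. Pax5 and Ebf1, which set up B cell identity, read below the median of the arrays in both pools. Pax5 differed by -0.12, and the 5 probe sets of Ebf1 ran from -0.62 to 0.23. Bcl6, the repressor of germinal centre B cells, differed by -0.18 and by 0.44 in its second probe set. Bcl11a differed by 0.12 in the probe set with the highest mean, while its 6 other probe sets ran from -0.93 to 0.15. No direction is given for Ebf1, Bcl6 and Bcl11a. The median of the 6 factors was -0.0024.

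Genes of antigen presentation and co-stimulation included 1 large difference. H2-Ob, the beta chain of the H2-O molecule that restrains peptide loading in B cells, read 32.4 in the IL-9Tg pool and 82.4 in the WT pool, a difference of -1.32. A further probe set, which the annotation shares between H2-Ob and Gm20506, read 73.9 in the IL-9Tg pool and 79.1 in the WT pool, so the difference rests on 1 probe set. H2-Oa, the alpha chain that pairs with H2-Ob and no member itself, read 49.3 in the IL-9Tg pool and 85.7 in the WT pool, a difference of -0.79. Cd83, an activation antigen of B cells and dendritic cells, read 194 in the IL-9Tg pool and 269 in the WT pool, a difference of -0.47. Cd40, the receptor for T cell help, differed by -0.06.

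The survival receptors differed from each other in direction. Tnfrsf13c, the BAFF receptor that mature B cells need to survive, read 95.3 in the IL-9Tg pool and 154 in the WT pool, 1.61-fold lower. Tnfrsf13b, the receptor TACI that antibody-secreting cells carry as well, read 162 in the IL-9Tg pool and 144 in the WT pool, a difference of 0.17. Tnfsf13b, which encodes the ligand BAFF, lay on the other side, at 377 in the IL-9Tg pool and 231 in the WT pool, a difference of 0.71, with 0.25 to 0.33 in its other probe sets.

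Genes that bring B cells into the follicle and maintain it were lower in part. Cxcr5, the receptor for Cxcl13, read 34.2 in the IL-9Tg pool and 53.5 in the WT pool, 1.55-fold lower, with both values dim. Ltb, the membrane-anchoring chain of lymphotoxin, read 128 in the IL-9Tg pool and 192 in the WT pool, a difference of -0.59 that just passed 1.5-fold. Lta, its partner chain, read 32.4 in the IL-9Tg pool and 30.3 in the WT pool, both below the median of the arrays.

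All 7 follicle members lay below 0, and the stroma and vessel genes differed more than the epithelial genes. Cxcl13, the chemokine that draws B cells into follicles, read 168 in the IL-9Tg pool and 301 in the WT pool, 1.79-fold lower. Its second probe set read 66.2 in the IL-9Tg pool and 224 in the WT pool, a difference of -1.75. Mfge8, a bridge protein for the uptake of dying cells that follicular dendritic cells make among others, read 685 in the IL-9Tg pool and 949 in the WT pool, a difference of -0.47. Madcam1, the vessel ligand of the gut-homing integrin, read 102 in the IL-9Tg pool and 146 in the WT pool, a difference of -0.52. Glycam1, a mucin-like ligand of L-selectin on high endothelial vessels, read 64.8 in the IL-9Tg pool and 131 in the WT pool, which at 2.002-fold lower only just reached the mark of 2-fold. The median of these 4 genes was -0.68.

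The promoter of Glycam1 is shown as that of the follicle member with the largest difference, in GRCm38.p6 at chr15:103565032-103565331 on the minus strand, with the same capitals.
Glycam1: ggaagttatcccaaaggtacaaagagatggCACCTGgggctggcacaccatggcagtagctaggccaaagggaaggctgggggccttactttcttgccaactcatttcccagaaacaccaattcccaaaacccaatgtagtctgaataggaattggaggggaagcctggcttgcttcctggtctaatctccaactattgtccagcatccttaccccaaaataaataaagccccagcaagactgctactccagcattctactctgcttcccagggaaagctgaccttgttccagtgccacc

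The 3 genes of the follicle epithelium differed little in the probe sets used. Ccl20, a chemokine of the epithelium above follicles, read 117 in the IL-9Tg pool and 128 in the WT pool. Gp2, the bacterial uptake receptor of M cells that the pancreas also makes, read 81.2 in the IL-9Tg pool and 87.9 in the WT pool. Tnfaip2, an M cell gene that other cells also express, read 217 in the IL-9Tg pool and 227 in the WT pool, and its other probe sets ran from -0.28 to 0. The median of the 3 was -0.11. The differences in the probe sets used, from -0.14 to -0.06, were smaller than the SD of 0.23 found among the probe sets that share a gene. The -0.28 in the other probe set of Tnfaip2 was larger in size. That SD is technical spread within the arrays and not the spread between mice.

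**Figure D2:**
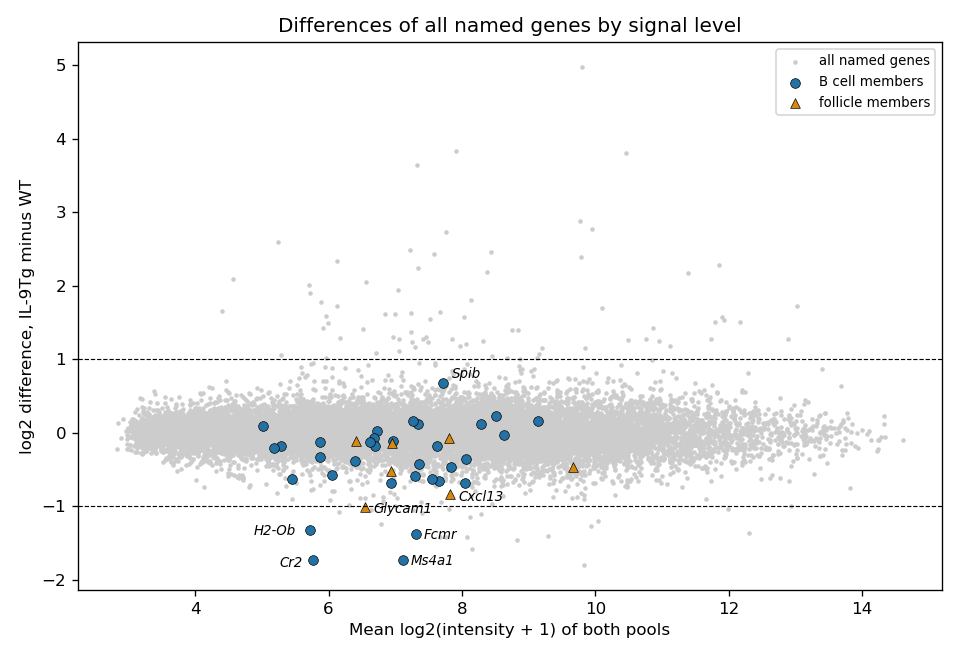
log2 difference (IL-9Tg minus WT) against the mean log2(intensity + 1) of both pools for all 18194 named genes (grey), the 33 B cell members (circles) and the 7 follicle members (triangles). Dashed lines mark 2-fold. Ms4a1 and Cr2 lie at the lower edge of all genes, Cxcl13 lies at -0.84, and Spib, at 0.69, is the highest member.

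Taken as 2 groups, the B cell members had a median of -0.21 and the follicle members one of -0.47. The B cell median minus the follicle median was 0.26, and this order depended on which genes and probe sets were counted. Over the 17 B cell members with the more restricted expression the median was -0.57, with 15 below 0 and 4 lower by 2-fold. Over the 16 that other cells express as well it was -0.12, with 10 below 0 and 0 lower by 2-fold. This split, like the other lists, was made with earlier results of these data known, so its contrast is a description only. With the restricted B cell genes the B cell median lay below that of the follicle members, by -0.10. It lay below by -0.20 when probe sets with the suffix _a_at, _s_at or _x_at were left out. Such suffixes mark matches to further transcripts, of the same gene or of others. Leaving them out removes 4 of the follicle members (Glycam1, Madcam1, Mfge8 and Gp2) and, of the B cell members lower by 2-fold, Cr2, all with the suffix _a_at.

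Several probe sets for 1 gene are further readings of the same RNA on the same array, not replicates. Of the 40 members 26 had 1 probe set, and 14 had several, 39 in all. In 8 of these 14 every probe set had the same direction. Those 8 included Ms4a1, Cxcl13 and Cd22, whose further probe sets differed by -2.13, -1.75 and -0.89, each more than in the probe set used. The second probe set differed by less than the one used in Fcer2a (-0.37 against -0.57), Cd37 (-0.10 against -0.43), Pax5 (-0.03 against -0.12) and Swap70 (0.08 against 0.12). In Fcrla, the last of the 8, the further probe sets lay on either side of the one used, at -0.38 and -0.01. Over all 65 probe sets of the members, 48 lay below 0, 7 were lower by 2-fold and 0 were higher by 2-fold. Over all 34958 named probe sets on the array, 15982 lay below 0 and 39 were lower by 2-fold.

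**Figure D3:**
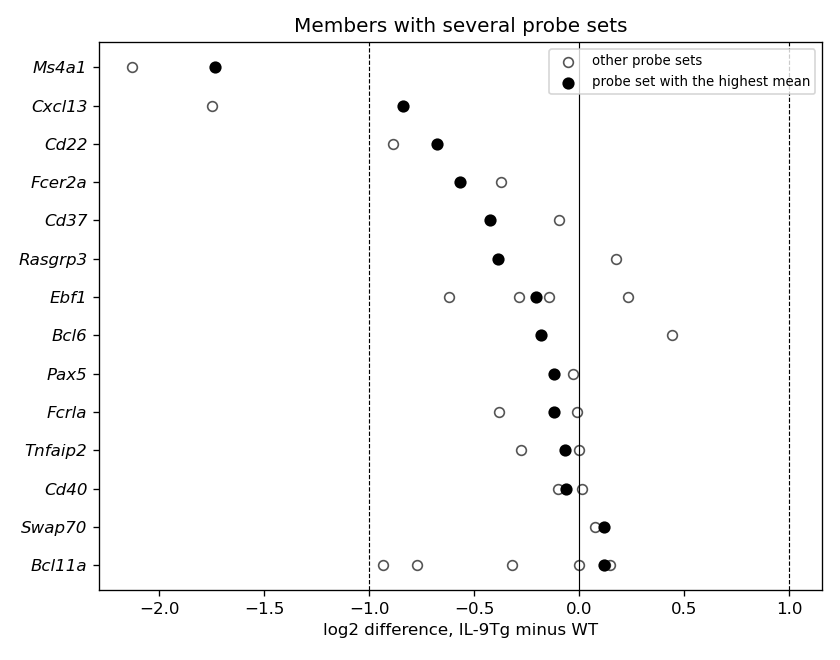
log2 difference (IL-9Tg minus WT) of each probe set of the 14 members that have several, with the probe set of the highest mean filled and the others open. Both probe sets of Ms4a1 lie beyond 2-fold (left dashed line), those of Cxcl13 lie at -0.84 and -1.75, and those of Bcl11a lie on both sides of 0.

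Short sequence motifs were counted in the RefSeq promoters of 34 members, from 250 bases before to 50 bases after the first start listed for each gene. Ms4a1, Cd79b, Blk, Cd40, Cd83 and Cxcr5 had no entry. The letters CAGGTG, read on either strand, are the core bound by E2A and related factors that act early in the B cell lineage. They occurred in 7 of the 9 promoters of members lower by 1.5-fold, in 6 of the 25 other member promoters, and in 5413 of all 27025 promoters in the table. A match is no binding site, and the split by difference makes this a description of these genes. CAGGTG was 1 of several motifs split in this way, and the splits of the others are given below. The stretches below, read along the gene with up to 20 bases on each side, are from the 4 members lower by 1.5-fold whose promoters are not printed above, with the match in capitals.
Cd22 at chr7:30879248-30879278, minus strand: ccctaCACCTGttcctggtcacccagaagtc
Bank1 at chr3:136326186-136326231, minus strand: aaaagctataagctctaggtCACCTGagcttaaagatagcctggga
Tnfrsf13c at chr15:82224451-82224496, minus strand: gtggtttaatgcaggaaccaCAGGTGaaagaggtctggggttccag
Ltb at chr17:35194421-35194466, plus strand: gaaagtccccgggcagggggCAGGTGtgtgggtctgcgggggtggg

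The letters GGANTTTCC, part of the kappaB element bound by NF-kappaB factors that lymphotoxin activates in stroma, occurred in 4 of the 34 member promoters and in 1.23% of all promoters. They were found on either strand in Ebf1, Ltb, Madcam1 and Tnfaip2. The stretches of Ltb and Madcam1 are shown because they encode a lymphotoxin chain and a vessel gene of the follicle, with the match in capitals.
Ltb at chr17:35194400-35194448, plus strand: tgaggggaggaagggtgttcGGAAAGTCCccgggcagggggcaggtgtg
Madcam1 at chr10:79664469-79664517, plus strand: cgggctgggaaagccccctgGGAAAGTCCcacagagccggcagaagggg

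The octamer ATGCAAAT was found on either strand in the promoters of Vpreb3 and Blnk, in 2 of 27 B cell promoters and in 1.75% of all. CCCNNGGG, a core of the EBF element, was found in 3 of 27 B cell promoters (Cd22, Bank1 and Spib) and in 13.4% of all. GAGGAA, the purine core bound by Ets factors such as Spib, was found in 11 of 27 B cell promoters and in 28.3% of all. Split by difference, GAGGAA went the other way from CAGGTG. It occurred in 2 of the 9 promoters of members lower by 1.5-fold and in 12 of the 25 others. The same split gave 2 of 9 and 3 of 25 for CCCNNGGG, 0 of 9 and 2 of 25 for the octamer, and 1 of 9 and 3 of 25 for GGANTTTCC. No motif was a part of another, but in Madcam1 the matches of CCCNNGGG and GGANTTTCC overlapped. That the letters were not found in the promoters of H2-Ob and Cxcl13 says only that they are not in these windows.

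Other B cell and follicle genes were read from lists of known genes. In the list of further B cell genes 0 of 16 were lower by 2-fold, 1 was higher and the median was 0.03. The 1 was Cd55, a complement regulator made by many cells, at 1970 in the IL-9Tg pool and 608 in the WT pool. Scd1, a lipid desaturase that other tissues make strongly, differed by 0.94, but by only 0.08 in its second probe set. Fcrl1, an Fc receptor-like protein of mature B cells, differed by -0.48 with -0.35 in its second probe set. In the list of receptor signalling 0 of 18 passed 2-fold, the median was 0.02, and the largest differences were 0.60 in the phosphatase Inpp5d and 0.48 in the GTPase Rac2, both shared with other leukocytes. In the germinal centre list 1 of 11 was higher by 2-fold, Rgs13, a regulator of G protein signalling that tuft cells also express, at 352 in the IL-9Tg pool and 61.7 in the WT pool. The median of that list was -0.03, and Irf8, at -0.30, differed most after Rgs13.

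Lists of follicle stroma, vessel and epithelium showed 0 genes past 2-fold. Among 8 genes of follicular dendritic and reticular cells the median was -0.0071. Clu, clusterin, which follicular dendritic cells make in quantity along with other cells, read 588 in the IL-9Tg pool and 1090 in the WT pool, a difference of -0.89, and its other probe sets ran from -1.43 to -0.88. Icam1, an adhesion molecule, differed by -0.30. Among 8 genes of the vessel list the median was 0.12, with 0.24 in Chst4, the sulfotransferase of high endothelial vessels, and 0.19 in Ackr1. This list includes Itgb7, an integrin chain of lymphocytes and not of vessels. The mean of both pools reached the median of all values in 5 of the 8, whose median was 0.10, and the others were dim. Among 9 genes of the lymphotoxin and alternative NF-kappaB pathway the median was 0.03, with Tnfsf13b the highest and Tnf, at -0.32, the lowest. Among 11 M cell and follicle-associated epithelium genes the median was -0.06, with 0.73 in Cd9 and -0.65 in Ubd.

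Antibody-secreting cell genes did not share the lower values. Of 11 genes 9 lay above 0, 0 passed 2-fold and the median was 0.24, and the summed intensity was 54767 in the IL-9Tg pool and 51077 in the WT pool. The list and its sums include Pigr, the receptor with which the epithelium transports antibody. Pigr read 13821 in the IL-9Tg pool and 15230.5 in the WT pool, so the sums are not of antibody-secreting cells alone. Fkbp11 and Mzb1, chaperones of antibody-secreting cells, differed by 0.72 and 0.60, although the other probe sets of Fkbp11 ran from -0.08 to 0. Ighm, the heavy chain of IgM and listed with the further B cell genes, differed by 0.15. Its other probe sets ran from -0.05 to 1.09, so no size is given for it.

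Values for other cell types are given beside these. For T cells 0 of 14 genes passed 2-fold and the median was 0.04, with 0.40 in Cd8a (-0.13 to 0.17 in its other probe sets) and -0.30 in Cd2. For dendritic cells and macrophages 0 of 11 passed and the median was 0.05, with 0.43 in Cx3cr1 and -0.37 in C1qb. For MHC class II 0 of 8 passed and the median was -0.01, with H2-Oa and H2-DMb2 (-0.44) the lowest. Pan-leukocyte genes had a median of -0.0047 over 8 genes, and their lowest, Laptm5 at -0.87, lay between -0.18 and 0.01 in its other probe sets. Mast cell genes moved in the opposite direction to the B cell members: 4 of 12 were higher by 2-fold, 11 lay above 0, and their summed intensity was 6073 in the IL-9Tg pool and 1437 in the WT pool, with Mcpt2 (2.89) and Mcpt1 (2.77) the largest. Of 7 adipocyte genes all lay above 0, with a summed intensity of 2214 in the IL-9Tg pool and 1534 in the WT pool. Adipoq (2.60) and Car3 (1.63) were the 2 higher by 2-fold. Adipoq was dim in the WT pool, at 14.3, and the other probe sets of Car3 ran from 0.14 to 3.62. The part of these other cell types in the lower B cell values was not tested.

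**Figure D4:**
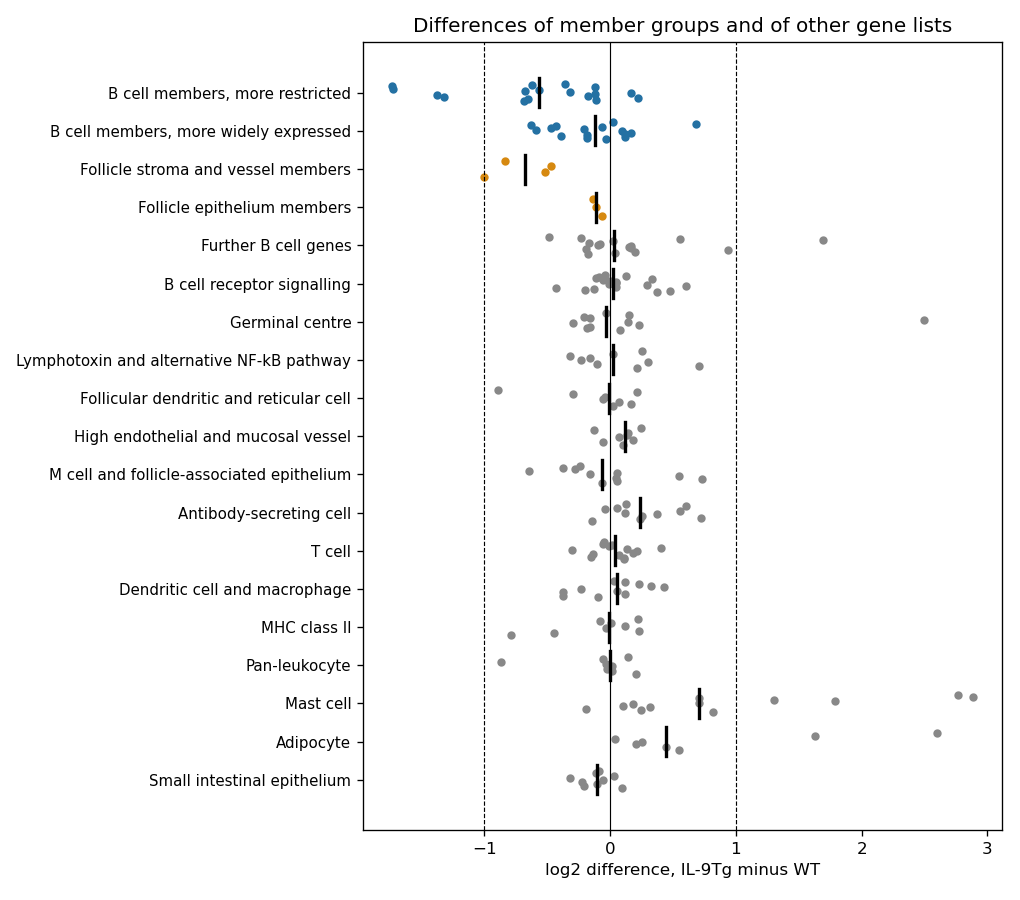
log2 difference (IL-9Tg minus WT) of each gene in the member groups (blue and orange) and in the other lists (grey), with the median of each as a black bar and 2-fold as dashed lines. The restricted B cell members (median -0.57) and the stroma and vessel members (-0.68) lie to the left of 0, while T cell (0.04), pan-leukocyte (-0.0047) and antibody-secreting cell (0.24) medians lie near or above it. The medians of further B cell genes (0.03), germinal centre (-0.03), follicular dendritic and reticular cell (-0.0071) and vessel genes (0.12) also lie near 0.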

How the data were processed

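For each group, 10 µg of total RNA from the small intestines of 3 pooled animals was labelled with biotin, per the labels' protocols, and hybridised to 1 array each. The deposited values are probe set intensities on a linear scale. RMA is named without a version in the submitters' processing notes, and the authors' genome build and chip annotation are not given in those notes as used here. RMA makes the distributions of the arrays alike and no detection calls came with the values, so no gene is called absent. Depth has no meaning for arrays, and their number limits the precision.

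Of 45101 probe sets, 34958 had 1 symbol in the platform annotation, 932 had several and 9211 had none, and only the first kind name a gene. Symbols were set against RefSeq genes of GRCm38.p6, which changed 0 of them. Each gene was taken as its probe set with the highest mean. Values were log2(intensity + 1), and differences were IL-9Tg minus WT, with no filter. The change of dim genes can thus be understated by background or overstated by noise. Counts use 2-fold and 1.5-fold. The SD between probe sets of one gene was pooled over 4837 genes. The members, lists and motifs were chosen with earlier results of these data known. All 40 members could be named, and of each other list those past 2-fold and the 2 largest differences. Fcrl1, Ighm, Slc34a2, Pigr and Itgb7 were chosen after their values were seen. A planned search for signalling motifs in the receptor proteins was not run. The computation was tested on simulated data. Python 3.11.15, pandas 2.3.3 and numpy 2.4.6 were used.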

Additional observations from a re-analysis of the deposited data

How the results depend on the processing

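Alternatives were the mean over probe sets, dropping suffixed probe sets (those whose suffix marks matches to further transcripts, of the same gene or of others), keeping genes by their mean or by their higher value, pseudocounts of 0 and 16, quantile normalization, the restricted B cell genes and a 1.5-fold threshold. The 4 B cell members lower by 2-fold became 2 when the mean had to reach the median of all values, 3 without the suffixed probe sets, where the only probe set of Cr2 drops out, and 10 at 1.5-fold. The 1 follicle member became 2 with the mean over probe sets, 0 without the suffixed probe sets, 0 with a pseudocount of 16 and 2 at 1.5-fold. The median of the B cell members moved to -0.57 with the restricted genes, and that of the follicle members to -0.14 without the suffixed probe sets. The B cell median minus the follicle median, 0.26, turned to -0.20 without those probe sets and to -0.10 with the restricted genes, where fewer genes are counted. Of 258 values of single members under the alternatives 251 moved by less than 0.23, the technical SD, and 7 moved by more. Only Bcl11a and Bcl6 changed sign. No paired analysis was possible because each group has 1 array. The spread between mice is unknown, and no difference has a replicate check.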
